A study of Mus musculus with 20 samples.

Results

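The neutrophil primary granule genes followed here in mouse bone marrow RNA are 7 of the 37620 genes counted: Mpo, Elane, Prtn3, Ctsg, Ms4a3, Ctsc and Serpinb1a, chosen by symbol and matched to their Ensembl identifiers, and all 7 passed the filter on low counts in every comparison. Primary granules, also called azurophilic granules, are made at the promyelocyte stage, when a granulocyte precursor still divides, and transcription of their contents is shut down as the cell matures. Mpo encodes myeloperoxidase, the haem enzyme that makes hypochlorous acid. Elane, Prtn3 and Ctsg encode the neutrophil serine proteases elastase, proteinase 3 and cathepsin G, which are made as inactive proenzymes and are activated by cathepsin C, the product of Ctsc. Serpinb1a encodes a serpin that inhibits these proteases in the cytosol, and Ms4a3 encodes a membrane protein of granulocyte and monocyte progenitors.

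The mice were irradiated F1 recipients, from a cross of C57BL/6 with another inbred strain, carrying transplanted marrow, pooled from 2 to 3 donors, in which doxycycline chow induced a transgene through rtTA. The transgene was either U2AF1(S34F), a mutant of the splicing factor that recognises the AG at the end of an intron, or U2AF1(WT), so the control groups also overexpressed U2AF1. Each genotype was given sudemycin D6, which targets SF3B1, another spliceosome protein, at 50 mg per kg per day over the last 5 of 7 days of doxycycline, or vehicle, with 5 mice in each of the 4 groups. The induction, the transplant, the jugular catheter and the sampling 18 h after the last infusion were shared by all groups, and donors were 8 to 12 and recipients 6 to 12 weeks old. Each mouse had 41145892 to 62138138 reads counted on genes. Nothing in the labels tells separate donor pools apart within a group, so the tests below measure the spread between recipient mice.

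U2af1 reads were higher in the U2AF1(S34F) mice than in the U2AF1(WT) mice, by 0.48 ± 0.07 (log2 fold change ± SE; FDR = 0.000294) under vehicle and by 0.35 ± 0.07 (FDR = 0.00416) under sudemycin D6. Xist, the transcript of the inactive X chromosome, had 39145 to 78640 counts in every U2AF1(WT) mouse and 1 to 8 in every U2AF1(S34F) mouse. The sum of 4 Y-linked genes ran the other way, from 0 to 4 against 10270 to 15034 counts. Genotype and the sex of the marrow can therefore not be told apart in these mice. In a principal component analysis of the 1000 most variable genes, the sudemycin-treated U2AF1(WT) mice 8 and 9 stood apart from the other 3 mice of their group, at -32.3 and -39.6 on the second component against -1.09 to 4.37. The tests were repeated without both. Vehicle-treated U2AF1(WT) mouse 2 also stood apart from its group, at -9.67 against 8.63 to 11.7 on the second component, with B cell markers at 56.3 against 158 to 190 CPM and proliferation genes at 4479 against 2744 to 3612 CPM. It was the highest mouse of its group for Prtn3, Ctsg, Ms4a3, Ctsc and Serpinb1a, and the part of its overall profile in the results was not tested. RNA of mature neutrophil genes was abundant: on a counts-per-million scale (CPM), 14 of them together made up 33890 to 98220 CPM. The sums were 302 to 1121 CPM for 13 erythroid markers and 20.9 to 234 for 13 B cell markers. Such sums depend on how strongly each listed gene is expressed and do not measure cell numbers.

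All 7 genes were abundant. Scaled to exon length, which allows levels to be compared between genes, Mpo led with a mean of 492 CPM per kb over the 20 mice, followed by Elane at 434, Serpinb1a at 294, Ctsg at 277, Prtn3 at 220.1, Ms4a3 at 86.8 and Ctsc at 41.0 CPM per kb. Even the lowest single value rested on 5231 counts, for Ms4a3, and the highest was 122307, for Mpo. The 7 genes together took a median of 0.322% of all gene counts in the U2AF1(WT) mice on vehicle and 0.368% in those on the drug, and 0.375% and 0.405% in the U2AF1(S34F) mice on vehicle and on the drug. The ranges of these shares overlapped between all groups, from 0.29% to 0.533%. Within a group, the coefficient of variation between mice lay between 7.42%, for Mpo in the vehicle-treated U2AF1(WT) mice, and 45.5%, for Ctsc in the same mice. In bulk marrow, fewer cells of a type and less RNA per cell cannot be told apart, and this holds for every level below.

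**Figure D1:**
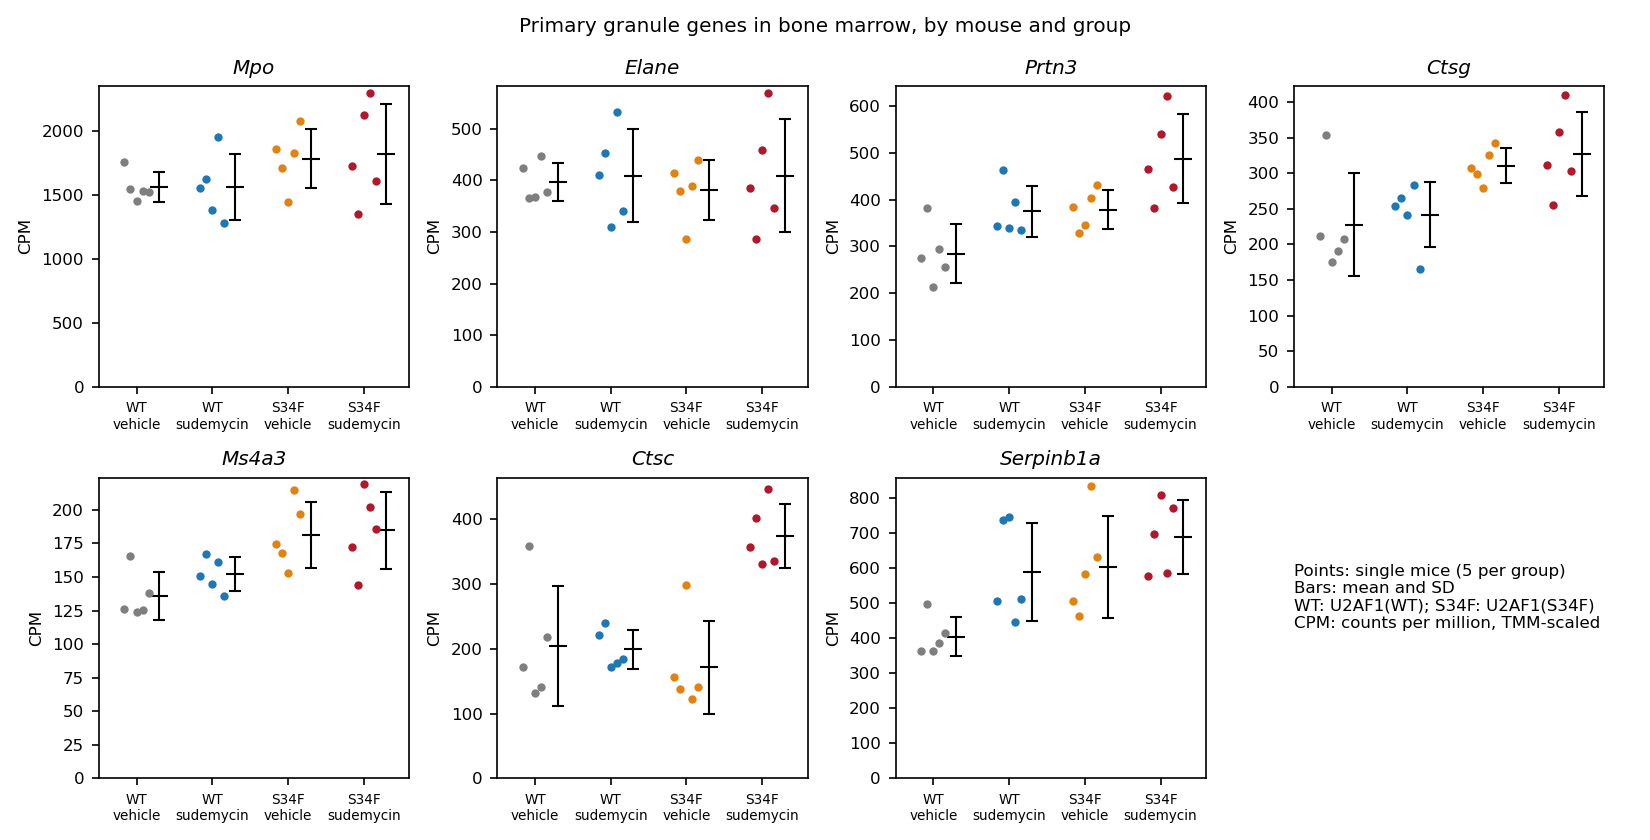
Level (CPM, a counts-per-million scale) of the 7 primary granule genes in each of the 20 mice, with 1 panel for each gene and its own linear axis. Points are mice, bars the group mean ± SD (n = 5); the 5 sudemycin-treated U2AF1(S34F) mice carry Ctsc at 332 to 448 CPM, above every mouse of 2 of the other 3 groups.

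The genotypes were compared first under vehicle, the contrast of U2AF1(S34F) with U2AF1(WT) marrow without the drug. Of the 7 genes, 4 were higher in the U2AF1(S34F) mice at FDR<10%: Serpinb1a, Ms4a3, Prtn3 and Ctsg. Mpo, Elane and Ctsc did not pass. In this comparison 39.5% of the 14817 genes tested passed in either direction and 19.7% passed as higher, and the median log2 fold change was 0.40 over the 7 genes and 0.00 over all genes (0.00207).

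Serpinb1a, the protease inhibitor, stood at 363, 363, 387, 415 and 497 CPM in the vehicle-treated U2AF1(WT) mice. It stood at 463, 507, 584, 631 and 835 CPM in the vehicle-treated U2AF1(S34F) mice. Only the lowest mutant mouse lay below the highest wild-type mouse, and the log2 fold change was 0.57 ± 0.15 (SE; 95% confidence interval 0.24 to 0.89; FDR = 0.0134). Ms4a3 stood at 124, 125, 126, 138 and 166 CPM in the U2AF1(WT) mice. It stood at 153, 168, 175, 197 and 215 CPM in the U2AF1(S34F) mice, with 1 mutant mouse inside the wild-type range. Its log2 fold change was 0.40 ± 0.11 (FDR = 0.0140).

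Of the serine proteases, Prtn3 stood at 213, 256, 276, 294 and 382 CPM in the vehicle-treated U2AF1(WT) mice. In the vehicle-treated U2AF1(S34F) mice it stood at 328, 346, 385, 404 and 430 CPM. The highest wild-type mouse, mouse 2, overlapped the lower mutant mice, and the log2 fold change was 0.40 ± 0.14 (FDR = 0.0404). Ctsg stood at 175, 191, 208, 212 and 354 CPM in the U2AF1(WT) mice, the highest again mouse 2. It stood at 280, 299, 308, 326 and 342 CPM in the U2AF1(S34F) mice, above the other 4 wild-type mice. The log2 fold change of Ctsg was 0.43 ± 0.16 (FDR = 0.0612), and without mouse 2 it was 0.65. Leaving out that mouse kept 4 members called. The call was lost when U2AF1(WT) mouse 1, 3, 4 or 5 or U2AF1(S34F) mouse 7 or 11 was left out (FDR = 0.112 to 0.136).

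The 2 most abundant members per length did not pass with all mice. Mpo averaged 1565 ± 116 CPM (SD, n = 5) in the vehicle-treated U2AF1(WT) mice and 1786 ± 231 in the U2AF1(S34F) mice, with a 95% interval of -0.05 to 0.41 around a log2 fold change of 0.18 (FDR = 0.218). Without mouse 5 of the U2AF1(S34F) group it was 0.24 (FDR = 0.0983). Elane averaged 396 ± 36.95 and 382 ± 58.3 CPM, with an interval of -0.31 to 0.17 around -0.07 (FDR = 0.679). Elane encodes the most abundant of the 3 serine proteases per length. Ctsc, the activating protease, varied most between mice of a group: it stood at 131, 141, 173, 219 and 359 CPM in the U2AF1(WT) mice. It stood at 122, 139, 141, 157 and 299 CPM in the U2AF1(S34F) mice, with 1 high mouse in each group (mouse 2 and mouse 5). Its log2 fold change of -0.26 ± 0.34 had an interval from -1.02 to 0.49 (FDR = 0.590), so a change of either sign was not detectable at this spread, and without mouse 2 it was 0.04.

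The same comparison under sudemycin D6 gave a different set of genes at FDR<10%: Ctsc, Ctsg, Prtn3 and Ms4a3 were higher in the U2AF1(S34F) mice, and Serpinb1a was not called. The share of all 14677 genes tested that passed was 36.8% in either direction and 17.2% as higher. The median log2 fold change was 0.28 over the 7 genes and -0.03 over all genes.

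Ctsc had the largest difference of the 7. It stood at 172, 178, 184, 222 and 240 CPM in the sudemycin-treated U2AF1(WT) mice. It stood at 332, 335, 357, 403 and 448 CPM in the sudemycin-treated U2AF1(S34F) mice. The groups did not overlap, as was so for 19.7% of all genes tested, and the log2 fold change was 0.91 ± 0.12 (1.88-fold; 95% interval 0.65 to 1.16; FDR = 0.000339).

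Prtn3 stood at 335, 339, 343, 396 and 462 CPM in the sudemycin-treated U2AF1(WT) mice and at 383, 427, 465, 540 and 622 CPM in the sudemycin-treated U2AF1(S34F) mice. Ctsg stood at 166, 241, 254, 266 and 283 CPM and at 255, 303, 311, 359 and 410.0 CPM in the same groups. Both overlapped between the genotypes, with log2 fold changes of 0.37 ± 0.14 (FDR = 0.0600) for Prtn3 and 0.43 ± 0.15 (FDR = 0.0532) for Ctsg. Ms4a3 averaged 152 ± 12.7 and 185 ± 28.7 CPM, a log2 fold change of 0.28 ± 0.11 (FDR = 0.0750). At FDR<5% Ctsc alone of the 7 remained. Leaving out U2AF1(WT) mouse 6 or 12 ended the calls of Prtn3 and Ms4a3, leaving out U2AF1(S34F) mouse 9 or 10 ended those of Prtn3, Ctsg and Ms4a3, and leaving out U2AF1(S34F) mouse 12 ended that of Ms4a3 (FDR = 0.103 to 0.168).

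Serpinb1a stood at 446, 506, 512, 737 and 745 CPM in the sudemycin-treated U2AF1(WT) mice and at 578, 586, 697, 773 and 810.0 CPM in the sudemycin-treated U2AF1(S34F) mice. Mice 8 and 9, which stood apart in the principal component analysis, were the 2 high wild-type mice. The log2 fold change was 0.23 ± 0.16 (FDR = 0.314) with them and 0.51 (FDR = 0.00767) without them, which made 5 of the 7 genes called. Mpo (0.22 ± 0.16, FDR = 0.336) and Elane (-0.01 ± 0.19, FDR = 0.981) did not pass.

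**Figure D2:**
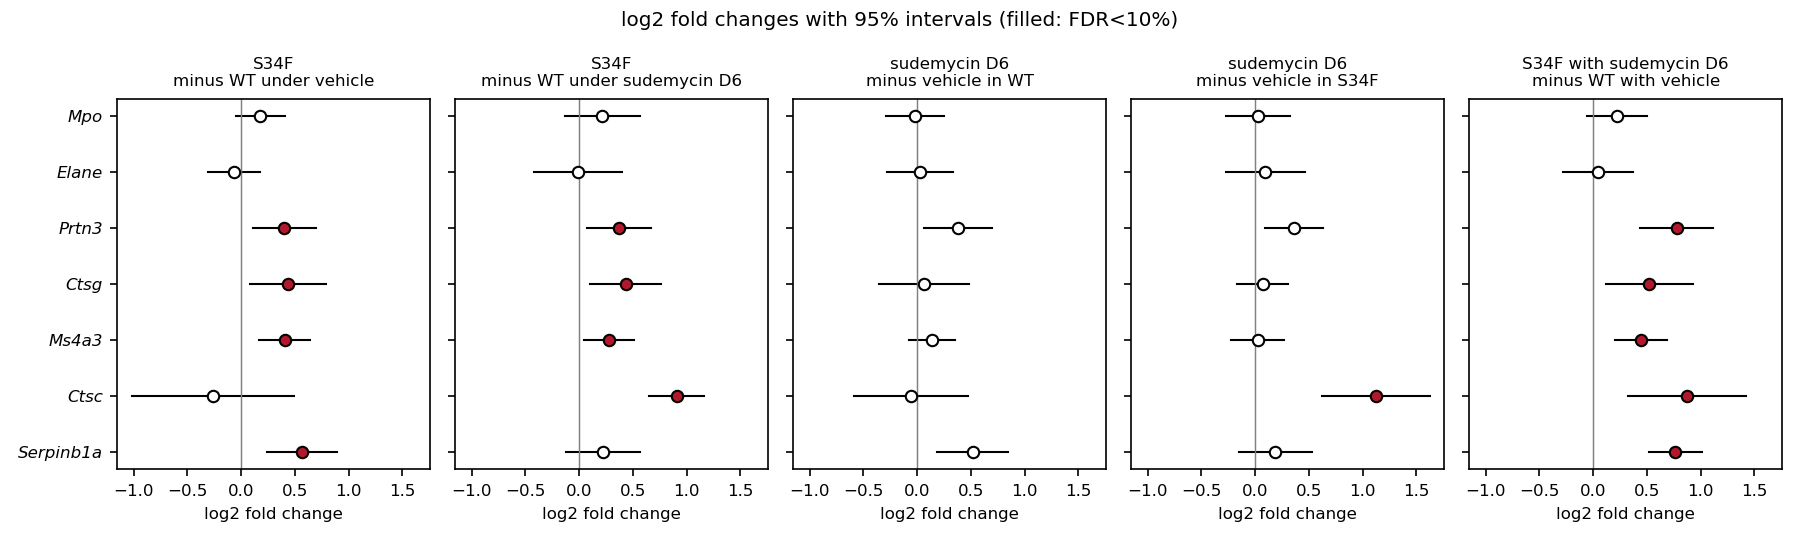
Log2 fold change of each of the 7 genes in the pairwise comparisons, from edgeR, with bars for the 95% confidence interval; filled points mark FDR<10%. Ctsc lies at 0.91 between genotypes under sudemycin D6 and at 1.12 between treatments in U2AF1(S34F) mice, while the intervals of Elane include 0 throughout.

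The drug was then compared with vehicle within each genotype. In the U2AF1(WT) mice none of the 7 genes passed FDR<10% in edgeR, where 3.07% of 14763 genes did. At an unadjusted p under 0.05, 2 of the 7 and 13.3% of all genes were past the threshold. Those 2 were Serpinb1a, which averaged 405 ± 55.9 CPM under vehicle and 589 ± 141 under the drug (log2 fold change 0.52 ± 0.15, FDR = 0.127), and Prtn3, at 284 ± 62.5 and 375 ± 54.7 CPM (0.38 ± 0.15, FDR = 0.274). Serpinb1a passed in DESeq2 (FDR = 0.0307) and, in edgeR, without vehicle mouse 2 (0.60, FDR = 0.0638) or drug mouse 10 (0.61, FDR = 0.0829). Prtn3 passed without vehicle mouse 2 (0.51, FDR = 0.0559). The other 5 genes lay between -0.06 and 0.14 on the log2 scale. For Mpo the 95% interval was -0.29 to 0.25, and for Ctsc it was -0.58 to 0.47.

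In the U2AF1(S34F) mice sudemycin D6 raised 1 of the 7, Ctsc, where 10.8% of 14714 genes passed in either direction and 4.94% passed as higher. The 5 vehicle-treated mice, at 122 to 299 CPM, lay below the 5 drug-treated mice, at 332 to 448 CPM, as given above. Such separation was seen for 7.80% of all genes tested. The log2 fold change of Ctsc was 1.12 ± 0.23 (2.18-fold; 95% interval 0.62 to 1.62; FDR = 0.0203). Prtn3 came next, at 379 ± 41.8 CPM under vehicle and 487 ± 94.95 under the drug (0.36 ± 0.12, FDR = 0.108 in edgeR and 0.04998 in DESeq2). Without drug mouse 6 it passed in edgeR (0.43, FDR = 0.0664). The remaining 5 genes lay between 0.02 and 0.19, each with an interval that includes 0.

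Whether the drug acted differently in the 2 genotypes was tested as an interaction over all 20 mice. None of the 7 passed, and 2 of 15392 genes did (0.013%). Ctsc had the largest interaction term of the 7, 1.17 ± 0.36 on the log2 scale (95% interval 0.42 to 1.91; unadjusted p = 0.00394, FDR = 0.376), and it was the 1 gene of the 7 at an unadjusted p under 0.05, where 7.43% of all genes lay. Without mouse 5 of the vehicle-treated U2AF1(S34F) group, the mouse with high Ctsc, the term was 1.49 (FDR = 0.0412), where 87 genes in all were called in place of 2. With each mouse left out in turn it ran from 0.86, without mouse 2 of the vehicle-treated U2AF1(WT) group, to that value. The term of Serpinb1a was -0.35 ± 0.23 (FDR = 0.792), and those of the other 5 genes lay between -0.13 and 0.05.

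The sudemycin-treated U2AF1(S34F) mice were also set against the vehicle-treated U2AF1(WT) mice, a comparison that shares its mice with those above. Here 5 of the 7 genes were higher, against 50.2% of 14761 genes called and 25.1% called as higher. Prtn3 was higher by 0.78 ± 0.16 (1.72-fold, FDR = 0.00210) and Serpinb1a by 0.77 ± 0.12 (1.70-fold, FDR = 0.000302), both without overlap between the groups, which held for 24.2% of all genes. Ctsc was higher by 0.87 ± 0.25 (FDR = 0.0172), Ctsg by 0.52 ± 0.19 (FDR = 0.0410) and Ms4a3 by 0.44 ± 0.11 (FDR = 0.00746). Mpo, at 0.22, and Elane, at 0.04, did not pass. Without U2AF1(S34F) mouse 6 Mpo passed (0.31, FDR = 0.0502), and without U2AF1(WT) mouse 4 Ctsg did not (0.46, FDR = 0.102). Across the 4 groups Prtn3, Ctsg, Ms4a3 and Serpinb1a shared one order of means, lowest in U2AF1(WT) mice on vehicle, then U2AF1(WT) mice on the drug, U2AF1(S34F) mice on vehicle and U2AF1(S34F) mice on the drug, although neighbouring groups in that order overlapped for each of them. Ctsc had another order, with vehicle-treated U2AF1(S34F) mice lowest and the sudemycin-treated ones highest.

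Prtn3 and Elane are paralogous proteases that lie side by side on mm9 chromosome 10, on the plus strand, at chr10:79337221-79345919 and chr10:79349057-79350961, with 3137 bases between them. Their counts did not keep one ratio across the groups. The log2 ratio of Prtn3 to Elane counts averaged -0.50 ± 0.33 (SD, n = 5) in the vehicle-treated U2AF1(WT) mice and -0.11 ± 0.23 in the sudemycin-treated U2AF1(WT) mice. It averaged 0.00 ± 0.19 (-0.00388) in the vehicle-treated and 0.27 ± 0.11 in the sudemycin-treated U2AF1(S34F) mice. Between the genotypes under sudemycin D6 all 5 mutant mice lay above all 5 wild-type mice, a difference of 0.38 (two-sided exact permutation test, p = 0.00794, the smallest that 5 against 5 mice allow; adjusted p = 0.0317 over 4 comparisons). The other differences were 0.50 between the genotypes under vehicle (exact permutation p = 0.0397, adjusted 0.0529), 0.39 for the drug in U2AF1(WT) mice (exact permutation p = 0.0635, adjusted 0.0635) and 0.28 for the drug in U2AF1(S34F) mice (exact permutation p = 0.0317, adjusted 0.0529). Each of these 3 passed with 1 mouse left out: without vehicle-treated U2AF1(WT) mouse 2 the first was 0.64 (exact permutation test, adjusted p = 0.0212) and the second 0.53 (adjusted p = 0.0212), and without vehicle-treated U2AF1(S34F) mouse 5 the third was 0.35 (adjusted p = 0.0318). The difference under sudemycin D6 missed an adjusted p of 0.05 with any of its mice left out (0.30 to 0.44, exact permutation test, adjusted p = 0.0529 to 0.0635). With 1 mouse fewer the smallest p that the test allows is larger, and the mutant mice still all lay above the wild-type mice. That miss was set by the group size and the adjustment. This repeat can therefore not show whether the difference rests on 1 mouse. The ratio was chosen after the gene levels had been seen, with Prtn3 called higher between the genotypes and Elane not. The p-values of the ratio do not account for that choice and are given as a description. Ratios of other gene pairs were not examined. Reads of the antisense gene BC005764, which overlaps Prtn3, amounted to 7.46% of those on Prtn3, and the library was stranded.

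The promoters of this pair, with that of Ctsg, are shown because the 3 proteases are close relatives. The 120 bases before each start are from RefSeq on GRCm38.p6, at chr10:79886192-79886311 (plus strand), chr10:79879547-79879666 (plus strand) and chr14:56102575-56102694 (minus strand). Capitals mark matches on either strand to GAGGAA, a core recognised by PU.1, TGTGGT, a RUNX core, or AACNG, a MYB core.
Elane: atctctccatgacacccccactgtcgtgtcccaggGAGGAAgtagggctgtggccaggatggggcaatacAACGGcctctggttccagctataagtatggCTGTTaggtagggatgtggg
Prtn3: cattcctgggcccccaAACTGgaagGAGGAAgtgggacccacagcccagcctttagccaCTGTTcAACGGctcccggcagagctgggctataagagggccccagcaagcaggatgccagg
Ctsg: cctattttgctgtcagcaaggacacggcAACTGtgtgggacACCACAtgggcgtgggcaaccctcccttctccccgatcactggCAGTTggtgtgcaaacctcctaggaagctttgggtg
The letters GAGGAA were found before Elane and Prtn3, 2 of the 6 members with an entry (Serpinb1a had none), and in 11.6% of 32851 RefSeq promoters of this length. AACNG was found before 4 of the 6 members (Elane, Prtn3, Ctsg and Ctsc) and in 46.9% of all promoters. TGTGGT was found before Ctsg alone and in 6.72% of all, and TTGCNNAA, a C/EBP core, before none of the 6 and in 4.15% of all. GAGGAA thus stands at similar distances from the starts of both neighbours, 85 to 80 bases before that of Elane and 95 to 90 bases before that of Prtn3.

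Levels were then correlated between mice of the same group. With the mean of each group removed, log2 CPM of Mpo and Elane had a Pearson r of 0.942 and a Spearman rho of 0.934 over 20 mice (permutation within groups, p = 1e-05 for both, the smallest that 100000 permutations can give; adjusted over 21 pairs, 0.00021 and 0.000105). Prtn3 and Ctsg (r = 0.823, rho = 0.815), Ctsg and Ms4a3 (r = 0.800, rho = 0.868) and Prtn3 and Ms4a3 (r = 0.788, rho = 0.782) followed. In all, 10 of the 21 pairs passed an adjusted p of 0.05 by both measures, and these are the 10 pairs among Mpo, Elane, Prtn3, Ctsg and Ms4a3. Their r was at least 0.508, as was that of 14.2% of all pairs of the 8389 genes with a mean of at least 10 CPM, so that correlation of this size was common in these mice. Leaving out the 2 mice farthest from the median of the first-named gene lowered r to 0.909 for Mpo and Elane. For Elane and Ctsg, the weakest of the 10, it lowered r to 0.347. Leaving out these mice also narrows the range of that gene, and the pairs were not tested again without them. Ctsc and Serpinb1a passed with no other member. The highest r of Ctsc was 0.437, with Ctsg (permutation p = 0.102, adjusted 0.178), and that of Serpinb1a was 0.469, with Ms4a3 (permutation p = 0.0435, adjusted 0.083).

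**Figure D3:**
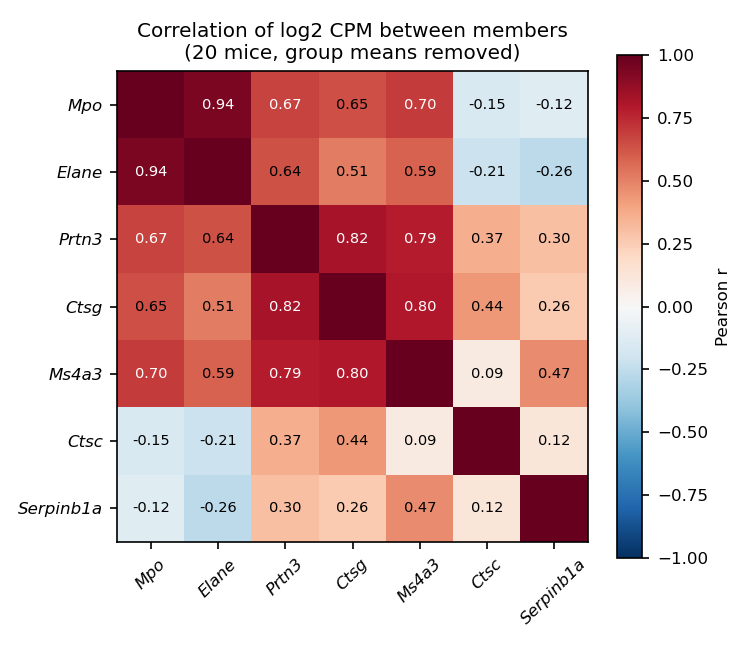
Pearson r of log2 CPM between the 7 genes over 20 mice after removal of the group means, 1 cell for each pair with r printed in it. The block of Mpo, Elane, Prtn3, Ctsg and Ms4a3 runs from 0.508 to 0.942, and Ctsc and Serpinb1a stay at or under 0.469 with every other member.

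The genes whose levels were most like the mean of the 7, among 8389 genes with a mean of at least 10 CPM, were Mthfd2 (r = 0.894 over 20 mice, group means removed), Prss57 (0.886), Gatm (0.884), Stt3b (0.873) and Dnmt1 (0.862). Prss57 encodes a further serine protease of the primary granule, Stt3b a catalytic subunit of the oligosaccharyltransferase that adds N-glycans, and Dnmt1 the maintenance DNA methyltransferase. For single members, looked up after the values were seen, the nearest gene to Ctsg was Mcm5 (0.936), a part of the replicative helicase, and the nearest to Ctsc was Ifi30 (0.939), a lysosomal thiol reductase. The nearest to Serpinb1a was Anxa1 (0.957), a protein abundant in mature neutrophils. These r values are the highest of 8389 genes and are given as a description.

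Because U2AF1 acts on splice sites, the junctions within the 7 genes were examined as a second readout, each junction against the other junctions of its gene. No member junction passed FDR<10% between the genotypes under vehicle, with 71 tested and 1.66% of 125410 junctions called over all genes. Of these 71, 4 (5.63%) had an unadjusted p under 0.05, as had 10.6% of all junctions. Under sudemycin D6, 2 of 77 member junctions passed, both of Ctsc, where 2.19% of 124013 junctions were called. There 10 of the 77 (13%) had an unadjusted p under 0.05, as had 11.5% of all. For the drug, 0 of 71 member junctions passed in edgeR in the U2AF1(WT) mice and 0 of 77 in the U2AF1(S34F) mice, with 0 at an unadjusted p under 0.05. With junctions averaging 10 or more reads per mouse let in, 2 passed in each genotype. A junction of Serpinb1a to an unannotated site (32939259 to 32937670 on mm9 chromosome 13) passed in the U2AF1(WT) mice without drug mouse 6 (1.82, FDR = 0.0294) or 12 (1.88, FDR = 0.0316). Over all junctions 0.0552% and 0.0909% were called, and 1.79% and 2.03% had an unadjusted p under 0.05.

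The 2 junctions of Ctsc (chr7:95426595-95459398, mm9, plus strand) lead to an annotated short transcript that leaves the gene after exon 2, ends in 2 exons of its own and has no coding sequence. The first joins the exon ending at 95430042 to the exon starting at 95435404, and the second joins the exon ending at 95435488 to the last exon of the short end at 95437160. The full-length transcript joins the same exon end to exon 3 at 95445593. The 3′ splice sites of both short-end exons and of exon 3, of which the first and the last are joined from the same exon end, are shown as the last 20 intron bases and the first 3 exon bases on mm9, at chr7:95435384-95435406, chr7:95437140-95437162 and chr7:95445573-95445595. Capitals mark the last 3 bases of the intron, the AG and the base before it.
Ctsc first exon of the short end: accactgtaaactcttaTAGgat
Ctsc last exon of the short end: ccctagtttttgttttgTAGtta
Ctsc exon 3: atttattttcttggttgCAGtat
Both short-end sites carry TAG and exon 3 carries CAG. Annotated 3′ splice sites were also counted where their junctions averaged at least 10 reads per mouse. In the 7 genes the base before AG was C at 65.3% of 49 such sites and T at 32.7%. This was near the 62.3% and 31.6% of 112510 such sites over all genes.

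Of the reads leaving that exon towards either end, the short end took 8.50%, 9.22%, 13.7%, 14% and 14.2% in the vehicle-treated U2AF1(WT) mice. It took 4.69%, 5.22%, 5.28%, 5.93% and 9.03% in the vehicle-treated U2AF1(S34F) mice. The single high mutant mouse, mouse 3, overlapped the wild-type range. Under sudemycin D6 it took 8.04%, 11.9%, 11.9%, 12.6% and 13.8% in the U2AF1(WT) mice and 3.75%, 4.14%, 4.24%, 4.64% and 4.73% in the U2AF1(S34F) mice, with no overlap. These shares rest on 50 to 228 short-end reads in each mouse. Tested against the rest of the gene, the first short-end junction differed by -0.92 on the log2 scale (FDR = 2.03e-05) and the second by -0.91 (FDR = 7.29e-05) between the genotypes under sudemycin D6. Under vehicle the same junctions differed by -0.62 (FDR = 0.586) and -1.14 (FDR = 0.166), neither past the threshold. Without U2AF1(WT) mouse 2 the second passed (-1.25, FDR = 0.0718).

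Reads on the short end and on the full-length junction are given apart. In junction reads scaled to CPM, the short end averaged 3.16 ± 0.714 in the sudemycin-treated U2AF1(WT) mice and 2.62 ± 0.708 in the sudemycin-treated U2AF1(S34F) mice, which overlap. The full-length junction averaged 24.4 ± 5.22 in the former, with a range of 16.4 to 29.5, and 57.8 ± 11.7 in the latter, with a range of 45.6 to 76.7. Under vehicle the short end averaged 3.24 ± 1.21 in the U2AF1(WT) mice and 1.64 ± 0.775 in the U2AF1(S34F) mice, with overlap, and the full-length junction averaged 25.0 ± 12.2 and 25.5 ± 10.8. The lower share in the mutant mice thus stood beside a higher full-length level under sudemycin D6 and beside a lower mean of the short end under vehicle, and these levels were not tested.

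Skipping of Prtn3 exon 2 is described next for the same genotypes, although its junction was not called in edgeR. A junction from exon 1 (ending at 79342487 on mm9 chromosome 10) to exon 3 (starting at 79343781) leaves out exon 2, which starts at 79343173. The 3′ splice sites of both exons, at chr10:79343153-79343175 and chr10:79343761-79343783, again differ in the base before AG.
Prtn3 exon 2: ctgacacctacttccccTAGgcg
Prtn3 exon 3: tcccacaaccttcactgCAGctc
Exon 2 was left out in 1.42%, 1.98%, 2.11%, 2.37% and 2.40% of reads in the vehicle-treated U2AF1(WT) mice and in 2.85%, 3.13%, 3.44%, 4.06% and 4.16% in the vehicle-treated U2AF1(S34F) mice. Under sudemycin D6 the shares were 1.27%, 1.60%, 1.89%, 1.93% and 2.36% in the U2AF1(WT) mice and 2.90%, 3.82%, 4%, 4.25% and 4.25% in the U2AF1(S34F) mice. Every mutant mouse lay above every wild-type mouse under either treatment, although this junction did not pass in edgeR (log2 difference against the gene 0.48, FDR = 0.535 under vehicle; 0.74, FDR = 0.126 under sudemycin D6). In limma, an alternative test, it passed under sudemycin D6 (1.01, FDR = 0.0588). The shares rest on 47 to 348 skipping reads in each mouse, and the event was described after the junction tests had been seen. How many junctions over all genes separate the genotypes in this way was not counted, here or for Ctsc.

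**Figure D4:**
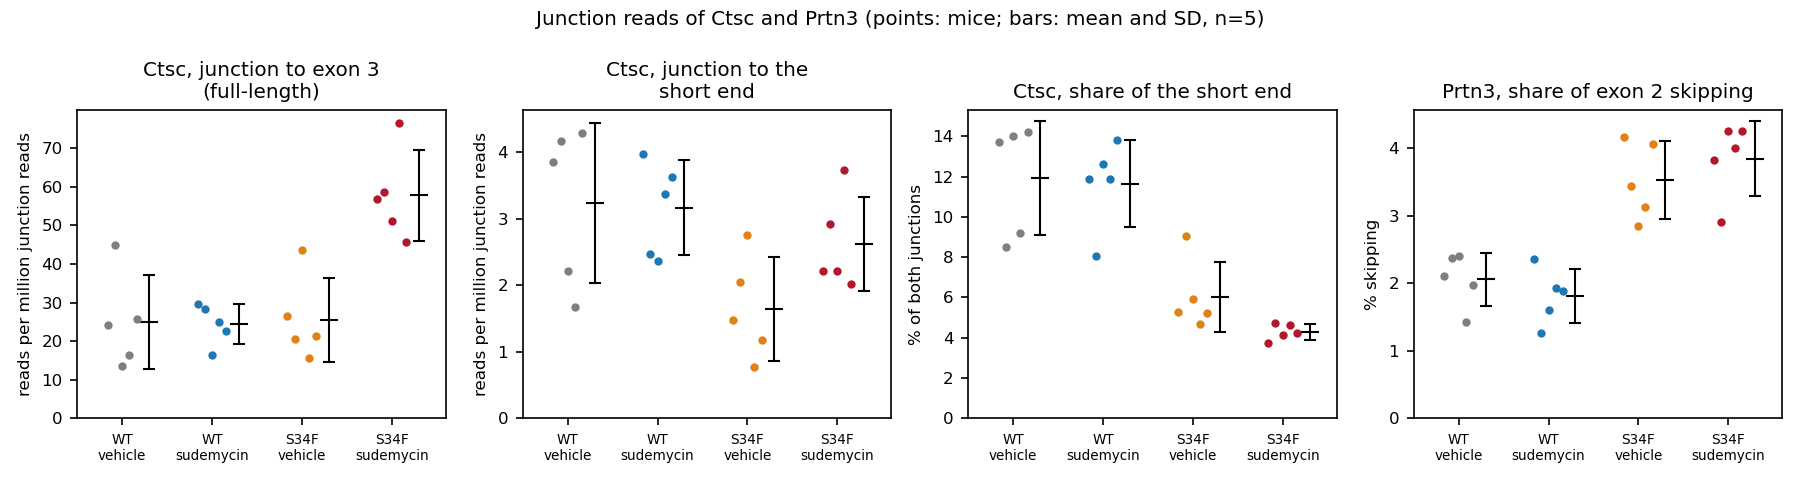
Share of reads, in percent, that take the short end of Ctsc and that leave out exon 2 of Prtn3, in each of the 20 mice, with the group mean ± SD (n = 5). The sudemycin-treated U2AF1(S34F) mice lie at 3.75% to 4.73% for Ctsc, below all U2AF1(WT) mice, and the U2AF1(S34F) mice lie at 2.85% to 4.25% for Prtn3, above all U2AF1(WT) mice.

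Of the other junctions of the 7 genes, none passed FDR<10% in edgeR with all mice. Larger log2 differences than that of Prtn3 exon 2 skipping were fitted under sudemycin D6 to rare junctions, among them 2 from Prtn3 exon 3 to unannotated sites at 79344734 (1.22, FDR = 0.408) and 79344737 (0.82, FDR = 0.487) and 1 of Mpo (-0.77, FDR = 0.337). The first of these had 606 reads over all mice and passed without U2AF1(WT) mouse 10 (5.36, FDR = 0.00232). A start of Mpo exon 2 that lies upstream of the main one took 5.72% ± 1.58 and 5.22% ± 0.694 (SD, n = 5) of reads in the vehicle- and sudemycin-treated U2AF1(WT) mice and 3.74% ± 0.900 and 4.02% ± 0.246 in the U2AF1(S34F) mice. Under sudemycin D6 these Mpo shares did not overlap between the genotypes either (4.43% to 6.12% in U2AF1(WT) and 3.77% to 4.4% in U2AF1(S34F) mice). The junction to the upstream start was far from a call in edgeR (-0.35, FDR = 0.459 under vehicle, and -0.24, FDR = 0.766 under sudemycin D6). How many junctions over all genes separate in this way was not counted. Both Mpo sites carry CAG. Exon 2 of Ms4a3 was left out in group means of 2.48% to 3.50% of reads. Junctions of both genes passed in alternatives. In limma 2 of Mpo passed between the genotypes under vehicle (0.38, FDR = 0.0505, and 0.33, FDR = 0.0837) and 1 of Ms4a3 under sudemycin D6 (3.03, FDR = 0.0829), and the latter also passed in edgeR without U2AF1(WT) mouse 8 (1.13, FDR = 0.0946). With a minimum mean of 10 reads per mouse, 2 of Mpo passed in edgeR under vehicle, both with nearly all reads in 1 mouse.

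The rest of the primary granule was read from a list of 15 further proteins, of which 14 were tested. Under vehicle 1 was higher in the U2AF1(S34F) mice (Prss57, 0.36 ± 0.11) and 2 were lower (the lysosomal genes Cd68, -0.33 ± 0.14, and Gaa, -0.27 ± 0.10). Under sudemycin D6, 2 were higher (Gusb, 0.33 ± 0.07, and Cd68, 0.26 ± 0.11) and none lower. The drug called none of them in the U2AF1(WT) mice and 1 in the U2AF1(S34F) mice (Gusb, 0.26 ± 0.07). The median log2 fold change of the list between the genotypes was -0.13 under vehicle and 0.04 under sudemycin D6. Of 10 other myeloid oxidase and peroxidase genes tested, 1 was higher and 0 lower under vehicle and 1 higher and 2 lower under sudemycin D6, with 0 called for the drug in the U2AF1(WT) mice and 1 higher in the U2AF1(S34F) mice.

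Of 13 genes that fold, pack and sort granule proteins, 7 were higher and 0 lower between the genotypes under sudemycin D6. Over all genes 17.2% were called as higher there. The 7 include the endoplasmic reticulum chaperones Calr (0.62 ± 0.12) and Canx (0.51 ± 0.11), the disulfide isomerase Pdia6 (0.49 ± 0.12) and Ap3s1 (0.64 ± 0.09), a subunit of the adaptor that sorts elastase. Under vehicle, where 19.7% of all genes were called as higher, 3 of the 13 were higher. There 2 were lower, among them Srgn, the proteoglycan that packs granule proteases, at -0.28 ± 0.08. The drug called 1 lower in the U2AF1(WT) mice, Srgn at -0.41 ± 0.09, and 2 higher in the U2AF1(S34F) mice, Ap3s1 and Hax1. None of the 13 was called for the interaction, and whether the list as a whole differs between the treatments was not tested.

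Protease inhibitors other than Serpinb1a were also counted, with 10 of 13 tested. The list mixes serpins and Slpi with cystatins and stefins, and not all of them act on serine proteases. Under vehicle 7 were higher in the U2AF1(S34F) mice, among them Slpi (0.40 ± 0.12), Cst7 (0.51 ± 0.09) and Serpinb6b (0.75 ± 0.20), and 2 were lower. Under sudemycin D6, 1 was higher (Cst7, 0.34 ± 0.13) and 2 lower (Serpinb2 and Stfa1). The drug called 1 lower in each genotype, Serpinb2. The near copies Serpinb1b and Serpinb1c had at most 10 counts in a mouse, so that few reads of Serpinb1a can belong to them. Of the other substrates of cathepsin C, 5 were tested between the genotypes. Under vehicle 1 was higher, Prss57, and 2 lower, the basophil proteases Mcpt8 (-0.62 ± 0.24) and Prss34 (-0.76 ± 0.28), and under sudemycin D6 none was called. For the drug, Mcpt8 alone was lower in the U2AF1(WT) mice and none was called in the U2AF1(S34F) mice.

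Among 12 transcription factors of granulocyte progenitors, 4 were higher and 3 lower in the U2AF1(S34F) mice under vehicle. Cebpe (0.59 ± 0.11) and Gfi1 (0.41 ± 0.12), which act at the promyelocyte and myelocyte stages, were higher, and Cebpb (-1.11 ± 0.17) and Runx1 (-0.39 ± 0.08) were lower. Under sudemycin D6, 1 was higher (Cbfb, 0.22 ± 0.08) and 2 lower (Cebpb and Cebpd). The drug called none in the U2AF1(WT) mice and 2 lower in the U2AF1(S34F) mice, Myb (-0.28 ± 0.09) and Ets1 (-0.37 ± 0.09). Of 18 genes of promyelocytes and granulocyte-monocyte progenitors, 7 were higher and 2 lower under vehicle, 4 higher and 1 lower under sudemycin D6, 0 were called for the drug in the U2AF1(WT) mice, and 4 were higher and 3 lower in the U2AF1(S34F) mice.

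Lists for other stages and cell types were counted against the same backgrounds, and their part in the results above was not tested. As given above, 39.5% of all genes were called between the genotypes under vehicle, 36.8% under sudemycin D6, and 3.07% and 10.8% for the drug in the U2AF1(WT) and U2AF1(S34F) mice. Of 16 secondary and tertiary granule genes, 5 were higher and 2 lower between the genotypes under vehicle and 1 higher and 3 lower under sudemycin D6, with 0 called for the drug in either genotype. Of 14 mature neutrophil genes, 3 were higher and 2 lower under vehicle, 2 higher and 3 lower under sudemycin D6, and 0 higher and 2 lower for the drug in the U2AF1(WT) mice and 0 higher and 1 lower in the U2AF1(S34F) mice. Under vehicle their summed level was 33890 to 47710 CPM in the U2AF1(WT) mice against 59360 to 98220 in the U2AF1(S34F) mice, with no overlap. Under sudemycin D6 it was 34490 to 67150 against 49080 to 87820 CPM. The sum is led by S100a8 and S100a9, both higher in the U2AF1(S34F) mice (1.26 ± 0.20 and 0.79 ± 0.16 under vehicle). Of 14 proliferation genes, 6 were higher under vehicle, 11 under sudemycin D6, 0 for the drug in the U2AF1(WT) mice and 4 for the drug in the U2AF1(S34F) mice, with none lower in any of these. Monocyte markers, of interest because Ctsc and Ms4a3 are also transcribed in that lineage, gave 6 of 12 lower under vehicle, 3 higher and 3 lower under sudemycin D6, and 1 lower and 0 called for the drug in the U2AF1(WT) and U2AF1(S34F) mice.

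Markers of the other lineages were counted in the same way. B cell markers gave 0 of 13 called under vehicle and 7 of 12 lower under sudemycin D6, with 2 and 3 of 13 lower for the drug in the U2AF1(WT) and U2AF1(S34F) mice, and the early markers Rag2 and Vpreb1 stood at 0.353 and 0.612 CPM on average. For the 2 genotype comparisons and then the drug in U2AF1(WT) and in U2AF1(S34F) mice, the numbers called lower were 5, 4, 8 and 4 of 12 eosinophil, basophil and mast cell markers and 1, 6, 0 and 2 of 13 erythroid markers, with none higher. The same order gave 2, 4, 0 and 3 of 10 megakaryocyte markers lower, with 1 higher under vehicle. It gave 1, 5, 0 and 2 of 12 T and NK cell markers lower, with 3 higher under vehicle. It gave 1, 2, 3 and 7 of 12 stem and progenitor cell markers lower, with 1 higher in each genotype comparison. Of 14 tested genes that lie beside a member on its chromosome, 1 was higher and 2 lower under vehicle, 1 higher and 4 lower under sudemycin D6, and 2 and 1 lower for the drug, against the 4, 4, 0 and 1 of 7 members called as higher.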

How the data were processed

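RNA of bulk bone marrow from 20 mice was sequenced by the authors as stranded libraries depleted of ribosomal RNA, with paired reads of 126 bp aligned to mm9 with TopHat 2.0.8 (TopHat2 and SAMtools in the submitters' processing notes). Read counts for 37620 genes and 554616 splice junctions were deposited by the authors, with no normalization. The program that counted reads on genes is not given in the sources used here, so the treatment of reads shared by overlapping genes is unknown.

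Groups came from the sample labels. Genes were tested in edgeR 4.0.16 in R 4.3.3 (filterByExpr, TMM, robust quasi-likelihood fit, prior count of 2) on the 10 mice of each comparison, and the interaction on all 20, with Benjamini-Hochberg adjustment over all genes tested and calls at FDR<10%. Each junction was tested against the other junctions of its gene with edgeR's diffSpliceDGE. In simulation its error control held only where dispersion followed a trend, so limma was run beside it. CPM used TMM-scaled library sizes. Single values were compared by two-sided exact permutation tests, and correlations by 100000 permutations within groups. Alternatives were DESeq2 1.42.0, DESeq2's size factors, library totals, other filters, FDR<5%, one model of all mice, autosomal genes alone, a replicate block, limma 3.58.1 and leaving out each mouse.

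The 7 genes and all gene lists were chosen with earlier results of these data known. Besides the 7, the genes named were U2af1, sex-linked genes, up to 4 called or abundant genes of each list and the 5 genes most like the mean of the 7. Of the junctions, up to 3 with the lowest p in each comparison were named. Other genes, the 2 mice left out together, the ratio of Prtn3 to Elane and the junction shares were chosen after values were seen. Promoters came from RefSeq on GRCm38.p6, and 3′ splice sites from the mm9 genome. Levels, shares and plots were made with scipy 1.17.1, pandas 2.3.3, matplotlib 3.10.9 and numpy 2.4.6 in Python 3.11.15.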

Additional observations from a re-analysis of the deposited data

Results flagged for a closer look

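In 4 of 44 groups of 5 mice, 1 mouse lay far from the other 4 by Dixon's test, where chance marks about 1 in 20. Ctsg in the vehicle-treated U2AF1(WT) mice was highest in mouse 2, at 354 CPM, with the next mouse at 212 CPM. Ctsc in the vehicle-treated U2AF1(S34F) mice was highest in mouse 5, at 299 CPM, with the next at 157 CPM. The share of reads taking the short end of Ctsc was highest in mouse 3 of the same group, at 9.03%, with the next at 5.93%. The share of reads at the upstream start of Mpo exon 2 was highest in mouse 1 of the vehicle-treated U2AF1(WT) group, at 8.47%, with the next at 5.61%.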

How the results depend on the processing

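Of 122 recounts of the members called, 108 stayed within 1.5 times the value reported. Under sudemycin D6 the genotype comparison called 1 member at FDR<5%, 2 with library totals in place of TMM, and 1 to 4 with a mouse left out. For the drug in U2AF1(WT) mice DESeq2, library totals and one model of all mice each called 1 (Serpinb1a), and leaving out a mouse gave 0 to 2. For the drug in U2AF1(S34F) mice DESeq2 called 2, and leaving out a mouse gave 1 to 2. The interaction gave 0 to 1, the genotypes under vehicle 3 to 5, and the comparison across genotype and drug 4 to 6. Ctsg under vehicle, with no filter on low counts, missed the threshold (0.45, FDR = 0.102), as it did across genotype and drug (0.53, FDR = 0.102).

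Member junctions called under vehicle were 2 in limma and 4 with a minimum of 10 reads per mouse, and 0 to 1 with a mouse left out. Under sudemycin D6 they were 4 in limma and 2 to 3 with a mouse left out. For the drug the minimum of 10 reads gave 2 in each genotype, and leaving out a mouse gave 0 to 1 in U2AF1(WT) and 0 in U2AF1(S34F) mice. Of the junctions that this minimum let in, 1 of Mpo had its 259 reads in 1 mouse, and another 190 of 199.

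Counts over all genes moved for the drug in U2AF1(WT) mice from 453 to 243 (FDR<5%), 819 (DESeq2), 1072 (one model) and 191 to 730 (a mouse left out). In U2AF1(S34F) mice they moved from 1588 to 826 (FDR<5%), 788 (one model) and 913 to 1736. For the interaction they moved from 2 to 116 (DESeq2), 4 (library totals), 10 (no filter), 8 (a CPM of 1 in 5 mice), 1 (autosomes), 13 (without Sud_WT 8 and 9) and 2 to 87.

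Values near 0 changed sign without reaching a call. These were Ctsc under vehicle with the replicate block (0.11), Elane under sudemycin D6 with no filter (0.017) or the block (0.035), Mpo for the drug in U2AF1(WT) mice without mice 8 and 9 (0.034), and Elane across genotype and drug with library totals (-0.016). Without mice 8 and 9 the first short-end junction of Ctsc (0.070) and the skipping junction of Prtn3 (0.035) did so for the drug in U2AF1(WT) mice. With a mouse left out, sign changes were limited to these ranges. Ctsc ran from -0.56 to 0.044 between genotypes under vehicle and from -0.18 to 0.25 for the drug in U2AF1(WT) mice, and its short-end junctions from -0.16 to 0.074 in U2AF1(WT) and -0.13 to 0.38 in U2AF1(S34F) mice. Elane ran from -0.12 to 0.019 (vehicle), -0.15 to 0.11 (sudemycin D6), -0.10 to 0.15 (across genotype and drug), -0.081 to 0.11 (drug in U2AF1(WT)) and -0.052 to 0.20 (drug in U2AF1(S34F)). For the drug, Mpo ran from -0.11 to 0.042 and from -0.072 to 0.12, Ctsg from -0.018 to 0.28 and from -0.020 to 0.15 in U2AF1(WT) and U2AF1(S34F) mice, and Ms4a3 from -0.044 to 0.098 in U2AF1(S34F) mice. The highest interaction term of the other 5 members ran from -0.067 to 0.19. The cause was not tested in these cases.

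Replicate numbers shared by the groups did not pair the mice: deviations of same-numbered mice had r of -0.05 to 0.13 under vehicle and -0.11 to 0.21 under sudemycin D6. With the number as a replicate block, 4 members were called in each genotype comparison, of 4628 and 3718 genes in all. Only numbers 1, 3 and 5 under vehicle and 6, 9, 10 and 12 under sudemycin D6 occur in both genotypes. A mouse with any other number adds nothing to the genotype difference in these fits. Under sudemycin D6 Ms4a3 left (0.32, FDR = 0.104) and Serpinb1a joined (0.39, FDR = 0.0521). The drug groups share no replicate numbers, so no block was fitted there. The ratio of Prtn3 to Elane moved between 0.30 and 0.44 for the genotypes under sudemycin D6 with a mouse left out. The groups stayed apart each time, at the smallest p that so few mice allow, which lay above 0.05 after adjustment. The other 3 contrasts each passed without 1 mouse.

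Each group had 5 mice, so that modest shifts in Ctsc, whose SE reached 0.34 under vehicle, were not detectable.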
